A study of Mus musculus with 30 samples.

Results

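The angiotensin and endothelin systems make the main vasoconstrictor peptides of the vessel wall, and 8 of their genes are described here in the heart and white adipose tissue of mice. The genes are Agt, Ace, Agtr1a and Agtr2 for angiotensin, and Edn1, Ece1, Ednra and Ednrb for endothelin. They were chosen by name for their place in these pathways, with earlier results of these data known. All 8 were found among the 36558 genes of the count table. The animals were male C57BL/6J mice that received an adeno-associated virus, AAV8, carrying either F11 or green fluorescent protein (GFP). F11 encodes coagulation factor XI. Every group, controls included, ate a high-fat diet (HFD) with l-NAME for 7 weeks, and the mice were 15 weeks old at tissue collection. No untreated group was part of these libraries, so each vector comparison is made within animals on HFD and l-NAME. The groups were 6 heart libraries and 8 adipose libraries with AAV8-GFP, and 7 heart libraries and 8 adipose libraries with AAV8-F11. The promoter of the vectors is not given in the sources used here. The labels do not say whether the libraries of a group stem from different mice. The p-values therefore rest on the variation among these libraries, part of which may be technical.

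Angiotensinogen, the product of Agt, is cut by renin to angiotensin I, which angiotensin-converting enzyme (Ace) turns into angiotensin II. Angiotensin II constricts vessels through the Gq-coupled receptor encoded by Agtr1a, while the receptor encoded by Agtr2 is mainly a fetal one. Endothelial cells secrete endothelin 1 after endothelin-converting enzyme (Ece1) has cut its precursor, and it acts on Ednra, the constrictor receptor of smooth muscle, and on Ednrb, which in endothelium releases nitric oxide and clears the peptide. l-NAME inhibits nitric oxide synthases, and adipocytes are a known source of angiotensinogen outside the liver.

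Total estimated counts per library, in units of 1e6, were 25.8 to 33.02 in heart and 15.9 to 26.3 in adipose tissue. Levels are given as counts per 1e6 (CPM) after scaling all 29 libraries together, and a count of 0 in a library allows a level of up to 0.0846 to 0.170 CPM. The scaling factors were 0.648 to 0.734 in heart, which raises levels, and 1.26 to 1.46 in adipose tissue, which lowers them. Mitochondrial transcripts made up 31.6 to 34.6% of the counts in heart libraries and 3.89 to 11.1% in adipose libraries. The labelled tissues matched their markers. The summed level of 10 cardiomyocyte markers was 66462 to 86161 CPM in heart, and that of 12 white adipocyte markers was 12603 to 33143 CPM in adipose tissue. A pair of adipose libraries stood apart in cardiomyocyte or epididymal transcripts. Library L140 (GFP vector) held 6759 CPM of the cardiomyocyte markers, against a median of 35.8 CPM over the adipose libraries. Library L142 (F11 vector) held 5600 CPM of an epididymis and testis list, against a median of 1.87 CPM, and the epididymal genes Adam7 and Lcn5 were at 2138 and 930 CPM in it. The sperm gene Prm1 was at 0.412 CPM in L142. L143 (F11 vector) held 18.9 CPM of the same list, and the heart library L2 (GFP vector) held 304 CPM of hepatocyte markers against a heart median of 10.3 CPM. Adipose libraries held 149 to 5934 CPM of hepatocyte markers with GFP (median 646) and 119 to 5535 CPM with F11 (median 641). L136, L145 and L146 held the most, at 5934, 5535 and 3003 CPM. The part of these transcripts in the adipose levels was not tested. In bulk tissue, fewer cells of a type and less RNA per cell cannot be told apart.

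Start sites were taken from a RefSeq table for GRCm38.p6, in which 7 of the 8 genes were matched and Agtr1a was not. The 250 bases before the start are shown for 3 genes: Agt and Ednra, whose levels differed most between the tissues in opposite directions, and Ace, which has a somatic start and a second start inside the gene that is known to serve male germ cells. Capitals mark TATAAA on either strand, the letters of a TATA box.
Agt, chr8:124569707-124569956, minus strand: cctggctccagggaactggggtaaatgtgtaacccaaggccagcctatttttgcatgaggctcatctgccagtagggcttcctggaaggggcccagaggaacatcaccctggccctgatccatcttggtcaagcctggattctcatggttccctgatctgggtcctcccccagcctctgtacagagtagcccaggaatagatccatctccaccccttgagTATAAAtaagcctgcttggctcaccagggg
Ednra, chr8:77724453-77724702, minus strand: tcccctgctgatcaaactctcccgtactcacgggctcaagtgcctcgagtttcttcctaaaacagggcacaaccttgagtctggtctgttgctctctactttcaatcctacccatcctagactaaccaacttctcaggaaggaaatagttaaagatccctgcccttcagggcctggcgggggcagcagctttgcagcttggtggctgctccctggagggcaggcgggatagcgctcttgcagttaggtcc
Ace, first start, chr11:105967698-105967947, plus strand: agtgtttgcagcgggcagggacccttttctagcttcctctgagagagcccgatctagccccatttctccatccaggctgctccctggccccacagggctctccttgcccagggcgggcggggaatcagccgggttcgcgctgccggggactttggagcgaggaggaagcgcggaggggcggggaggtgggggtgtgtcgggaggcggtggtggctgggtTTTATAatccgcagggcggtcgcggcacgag
Ace, internal start, chr11:105974939-105975188, plus strand: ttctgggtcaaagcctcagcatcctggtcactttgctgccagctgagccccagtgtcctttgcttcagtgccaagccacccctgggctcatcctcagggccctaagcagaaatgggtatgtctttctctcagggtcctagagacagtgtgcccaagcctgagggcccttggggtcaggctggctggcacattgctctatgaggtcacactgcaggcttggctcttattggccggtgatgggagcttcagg
The Agt window had TATAAA on its own strand, 30 to 25 bases before the start. In the first Ace window the letters stood on the opposite strand, 31 to 26 bases before the start. Neither the Ednra window nor that of the internal Ace start held them. TATAAA was present on either strand in 12.3% of 32536 windows of the same length. The same 4 windows were searched on both strands for an AP-1 motif (TGACTCA), an E-box and a GATA motif, and none of them was found. The E-box was written CACGTG. For the GATA motif the letters were AGATAA, and none of the motifs contains another. Of all windows, 4.45% held the AP-1 motif, 6.04% the E-box and 9.97% the GATA motif.

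Compared per kilobase of exon, Ece1 was the most abundant of the 8 transcripts in GFP hearts, at 27.7 ± 3.13 CPM per kb (SD, n = 6), and Agtr2 the least, at 0.00710 ± 0.0121 CPM per kb. Ace followed at 14.7 ± 2.08 and Agtr1a at 13.0 ± 1.09 CPM per kb, and the ranges of these 2 over libraries overlapped. Ednrb at 7.12 ± 0.877 and Ednra at 6.96 ± 0.932 CPM per kb could not be ranked either, and they changed places in F11 hearts. Agt at 2.39 ± 0.614 and Edn1 at 1.57 ± 0.197 CPM per kb were the lowest of the transcripts found in every heart library, with overlapping ranges. Adipose tissue had another order. Agt stood at the top in GFP libraries with 37.0 ± 27.1 CPM per kb (SD, n = 8), but its range of 9.57 to 90.2 reached from below the lowest Ednrb library to far above the highest Ece1 library. Ece1 was at 34.2 ± 3.43, Ace at 16.2 ± 2.49 and Ednrb at 12.6 ± 1.05 CPM per kb. Ece1 lay above Ace in every library, while the ranges of Ace and Ednrb overlapped. Agtr1a at 4.73 ± 1.38, Ednra at 2.42 ± 0.653 and Edn1 at 2.00 ± 0.438 CPM per kb followed. Ednra overlapped with both of the others, and Agtr1a lay below Ednrb in every library. The same order held for the group means of F11 adipose libraries.

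**Figure D1:**
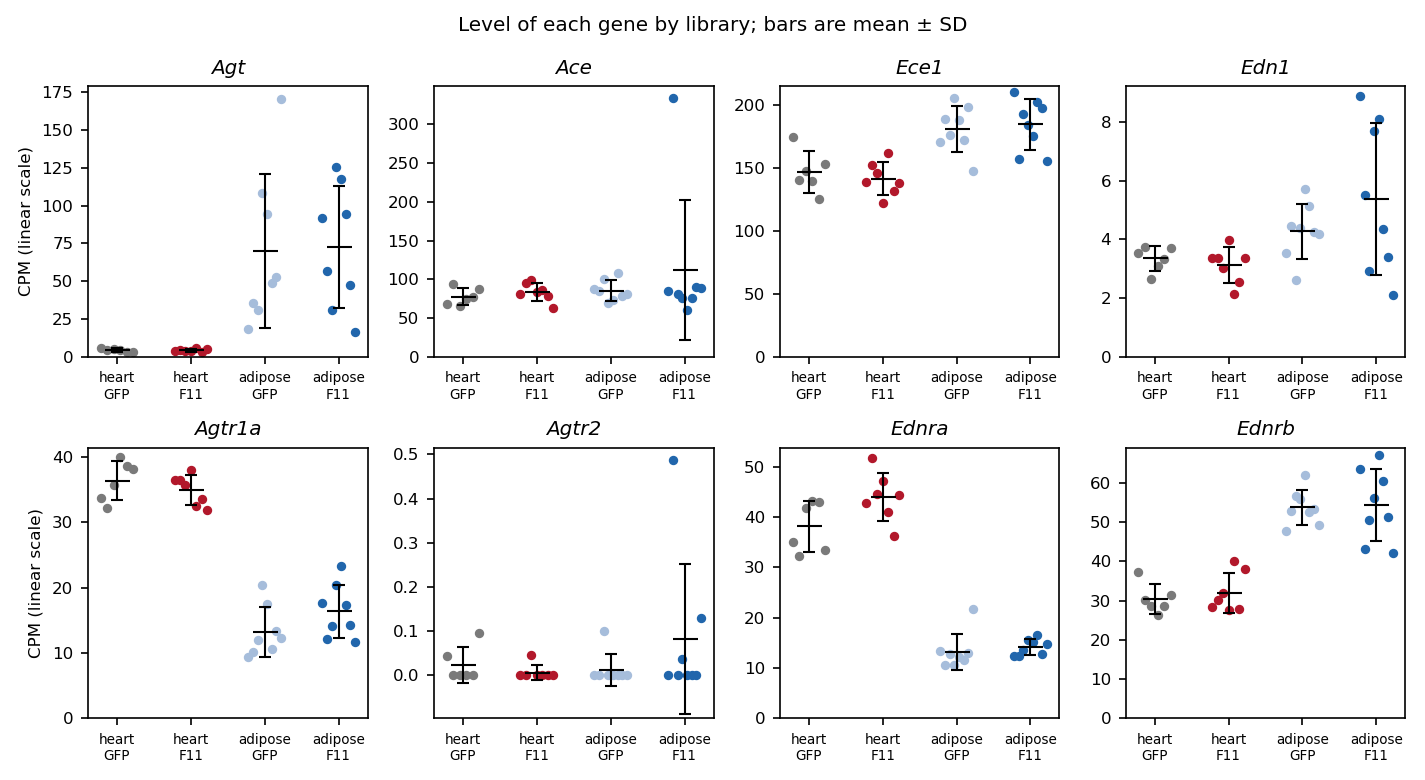
Level of each of the 8 genes in CPM on a linear scale, with 1 point per library and bars for mean ± SD. Agt was higher in every adipose library than in any heart library, Agtr1a and Ednra were lower in every adipose library, and single high points are seen for Ace and Agtr2 (L142) and Ednra (L140).

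Heart and adipose tissue were compared within each vector, which asks where each part of the 2 systems is transcribed. Fold sizes, overlaps and calls between the tissues all rest on the scaling between them, and counts without this scaling were not compared. With the GFP vector 6 of 7 tested genes passed an adjusted p of 0.05, 2 of them higher in heart and 4 lower, in a comparison in which 81.4% of 15578 genes passed. With the F11 vector, in separate libraries, the count was again 6 of 7, where 81.7% of 15719 genes passed. Such a share is close to the background, so the size of each difference is what distinguishes the genes. The median absolute log2 difference of the 7 genes was 0.83 with GFP and 0.76 with F11, beside 0.84 and 0.85 over all genes tested. Groups did not overlap for 4 of the 7 genes under either vector (Agt, Agtr1a, Ednra and Ednrb), against 60.9% of all genes with GFP and 60.8% with F11.

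**Figure D2:**
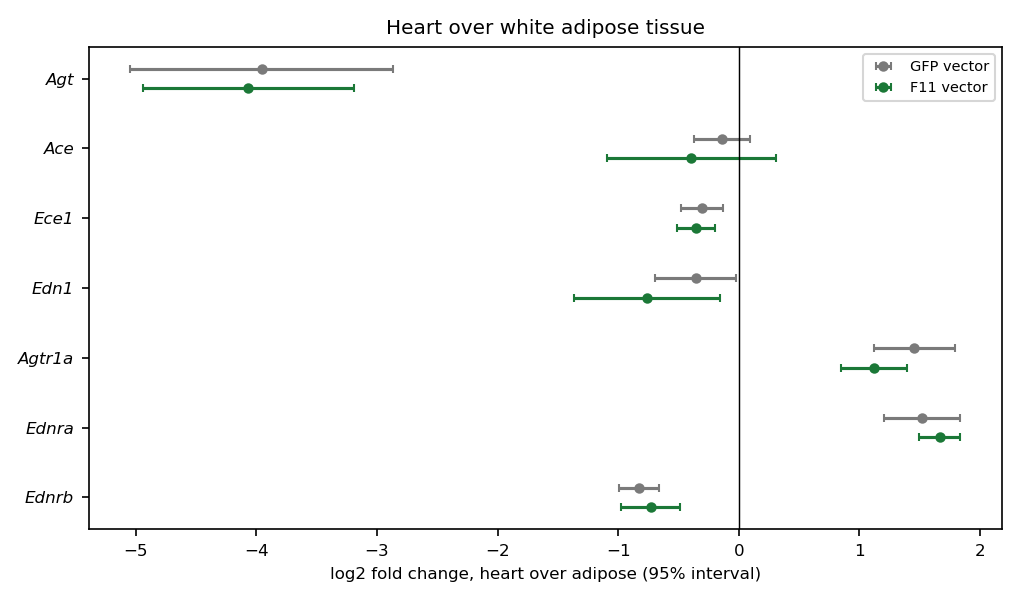
Log2 fold change of heart over white adipose tissue for the 7 tested genes, with 95% intervals, for each vector. Agt lies near -4 under both vectors, Agtr1a and Ednra lie above 0, and the intervals of Ace include 0.

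Agt (chromosome 8, 124556534 to 124569706, GRCm38) encodes the only precursor of the angiotensin peptides. In GFP hearts its level ran from 2.95 to 5.98 CPM with a median of 4.63. In GFP adipose libraries it ran from 18.1 to 170.6 CPM with a median of 50.8. Every adipose library was thus above every heart library, although adipose libraries differed among themselves by up to 9.43-fold. Agt was 15.5-fold higher in adipose tissue with GFP (log2 heart over adipose -3.96, SE 0.51, adjusted p = 4.79e-06, edgeR). With F11 it ran from 2.96 to 5.70 CPM in heart and from 16.2 to 125.5 CPM in adipose tissue, a 16.8-fold difference (log2 -4.07, SE 0.41, adjusted p = 1.61e-07). The highest adipose value was that of L140, which carries cardiomyocyte transcripts, and the log2 difference was -3.58 without that library.

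Ace (chromosome 11, 105967945 to 105989964) did not pass for a difference between the tissues under either vector, on levels scaled between the tissues. The range was 65.1 to 93.4 CPM with a median of 76.2 in GFP hearts and 69.6 to 108.1 CPM with a median of 82.9 in GFP adipose libraries. These ranges overlapped over most of their length, and the difference did not pass (log2 -0.14, 95% interval -0.37 to 0.09, adjusted p = 0.244). In F11 libraries heart ran from 63.3 to 99.1 CPM, with a median of 83.8, and adipose tissue from 60.6 to 333.8 CPM, with a median of 83.4. The value of 333.8 CPM belonged to L142, and the other 7 F11 adipose libraries reached no more than 90.0 CPM. The log2 difference was -0.39 with all libraries (95% interval -1.10 to 0.31) and 0.11 without L142.

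Agtr1a (chromosome 13, 30336441 to 30382867), the constrictor receptor for angiotensin II, was the heart-enriched member of its system. GFP hearts ranged from 32.1 to 39.9 CPM with a median of 36.9, and GFP adipose libraries from 9.41 to 20.5 CPM with a median of 12.1. No heart library fell to the adipose range. Agtr1a was 2.75-fold higher in heart with GFP (log2 1.46, SE 0.16, adjusted p = 6.85e-07) and 2.18-fold higher with F11 (log2 1.12, SE 0.13, adjusted p = 7.07e-07). Thus the precursor and its receptor had opposite gradients between the tissues.

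Agtr2 (chromosome X, 21484544 to 21489164) was at the limit of detection. Its counts summed to 3 over the GFP hearts, 1 over the F11 hearts, 3 over the GFP adipose libraries and 17 over the F11 adipose libraries. Exact 95% Poisson intervals of these sums, which cover counting error only, were 0.619 to 8.77, 0.0253 to 5.57, 0.619 to 8.77 and 9.90 to 27.2 counts. It was at 0 in 22 of the 29 libraries, and 13 of the 17 counts came from L142. Agtr2 did not pass the filter on low counts in any comparison and so has no edgeR value. The second type 1 receptor gene of mice, Agtr1b, which is named after its values were seen, was also close to 0, with sums of 0 to 6 counts per group.

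In the endothelin system the 2 receptors had opposite gradients. Ednra (chromosome 8, 77663031 to 77724464) ranged from 32.2 to 43.2 CPM, with a median of 38.4, in GFP hearts and from 10.6 to 21.7 CPM, with a median of 12.6, in GFP adipose libraries. The groups did not overlap, and the highest adipose value was again that of L140. Ednra was 2.87-fold higher in heart with GFP (log2 1.52, SE 0.15, adjusted p = 2.06e-07), and the log2 difference was 1.71 without L140. With F11 it was 3.18-fold higher in heart (log2 1.67, SE 0.08, adjusted p = 1.17e-11).

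Ednrb (chromosome 14, 103814625 to 103844402) ran from 26.3 to 37.2 CPM, with a median of 29.4, in GFP hearts and from 47.7 to 62.0 CPM, with a median of 53.0, in GFP adipose libraries. All adipose libraries were above all hearts. Ednrb was 1.77-fold higher in adipose tissue with GFP (log2 heart over adipose -0.83, SE 0.08, adjusted p = 1.39e-07) and 1.66-fold higher with F11 (log2 -0.73, SE 0.11, adjusted p = 2.19e-05). In hearts the ratio of Ednra to Ednrb per kilobase was 0.998 ± 0.226 with GFP (SD, n = 6) and 1.09 ± 0.205 with F11 (SD, n = 7). It was 0.195 ± 0.0646 (SD, n = 8) and 0.207 ± 0.0354 (SD, n = 8) in GFP and F11 adipose tissue. The lowest heart ratio was 0.734 and the highest adipose ratio 0.344, so transcripts of the constrictor and the clearing receptor were about equally abundant in heart, while those of Ednrb were in excess in adipose tissue.

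Transcripts of the converting enzyme and of endothelin 1 were also higher in adipose tissue. Ece1 (chromosome 4, 137862237 to 137965229) ranged from 125.5 to 174.9 CPM, with a median of 144.3, in GFP hearts and from 147.95 to 205.6 CPM, with a median of 182.6, in GFP adipose libraries. The ranges overlapped, but all hearts lay below the adipose median. Ece1 was 1.24-fold higher in adipose tissue with GFP (log2 -0.31, SE 0.08, adjusted p = 0.00318) and 1.28-fold higher with F11 (log2 -0.35, SE 0.07, adjusted p = 0.0004). Edn1 (chromosome 13, 42301476 to 42307990) was low everywhere. It ran from 2.66 to 3.76 CPM, with a median of 3.44, in GFP hearts and from 2.60 to 5.71 CPM, with a median of 4.32, in GFP adipose libraries. With GFP the log2 difference was -0.36 (SE 0.16, adjusted p = 0.0481), and this call was lost under 7 of 8 other settings (adjusted p 0.0452 to 0.187) and on leaving out any of 12 of the 14 libraries (up to 0.113). With F11 the ranges were 2.13 to 3.99 CPM in heart and 2.12 to 8.89 CPM in adipose tissue, and the log2 difference was -0.76 (SE 0.29, adjusted p = 0.0224).

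The F11 vector was then compared with GFP in heart. None of the 7 tested genes passed an adjusted p of 0.05 with edgeR, DESeq2 or limma voom, in a comparison in which 0.872% of 14684 genes passed with edgeR. At an unadjusted p of 0.05 the count was 1 of 7, beside 12.5% of all genes. The log2 fold changes had a median of -0.06, against -0.01 for all genes tested. The gene with the lowest p was Ednra, at 32.2 to 43.2 CPM (median 38.4) in GFP hearts and 36.2 to 51.7 CPM (median 44.4) in F11 hearts. Of the 7 F11 hearts 6 were above the GFP median, and the ranges overlapped. Its log2 fold change was 0.20 (SE 0.09, 95% interval 0.02 to 0.39), with an unadjusted p of 0.0300 and an adjusted p of 0.335. The summed cardiomyocyte markers were at 66462 to 70363 CPM in GFP hearts and 74712 to 86161 CPM in F11 hearts, the mural markers at 3257 to 3665 and 3379 to 3789 CPM, and the fibroblast markers at 2530 to 3523 and 2466 to 2984 CPM. Their part in the Ednra value was not tested.

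The other genes of the heart differed by less. Agtr1a ran from 32.1 to 39.9 CPM with GFP and from 31.9 to 37.9 CPM with F11, and its 95% interval of -0.18 to 0.06 on the log2 scale was the narrowest. The converting enzyme Ece1 had a log2 fold change of -0.06 (95% interval -0.21 to 0.10). For Ace the value was 0.11 (-0.12 to 0.33) and for Ednrb 0.07 (-0.15 to 0.29). The precursor genes had the widest intervals, with -0.09 (-0.47 to 0.28) for Agt and -0.11 (-0.40 to 0.17) for Edn1. Agtr2 was tested alone by a two-sided exact permutation test of mean CPM over all 1716 splits, which gave p = 0.629. With counts in 3 of the 13 heart libraries, the exact test could not go below p = 0.140. Groups overlapped for each of the 7 genes that edgeR tested, whereas 1.06% of all genes had groups that did not.

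**Figure D3:**
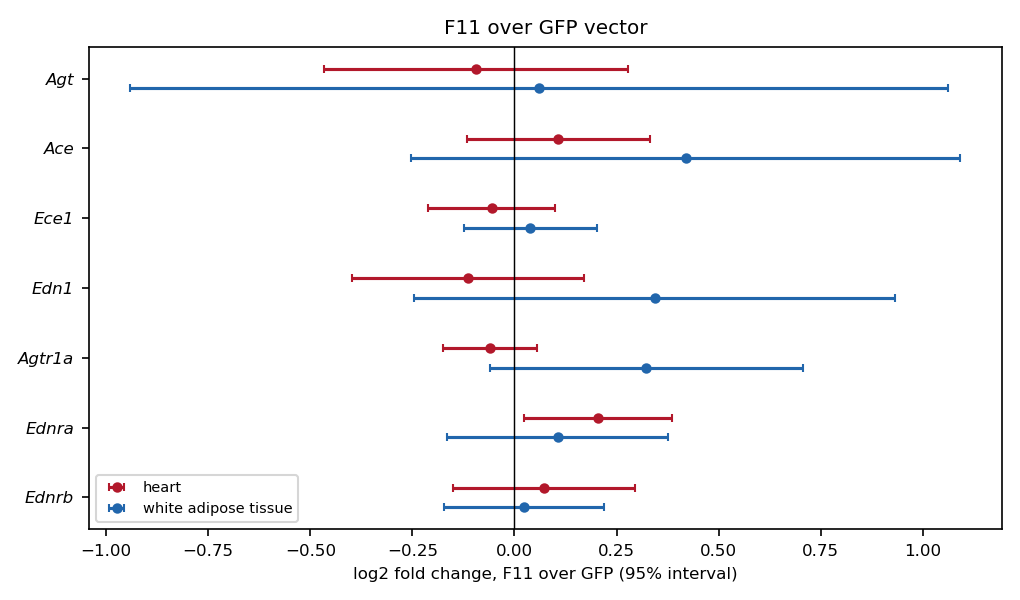
Log2 fold change of F11 over GFP vector for the 7 tested genes in heart and in white adipose tissue, with 95% intervals. All points lie within 0.5 of 0, and the intervals are wider in adipose tissue for each gene except Ednrb, most of all for Agt and Ace.

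In adipose tissue no member passed either, where 0% of 15229 genes passed with edgeR. At an unadjusted p of 0.05 the counts were 0 of 7 members and 4.19% of all genes, and neither DESeq2 nor limma voom called a member. All 7 log2 fold changes were positive, with a median of 0.11 against 0.00 for all genes, but that of Ace rested on 1 library. When each of the 16 libraries was left out in turn, the sign changed in 6 fits for Agt and in 3 for Ednrb. Ace ran from 69.6 to 108.1 CPM (median 82.9) with GFP and from 60.6 to 333.8 CPM (median 83.4) with F11, and its log2 fold change of 0.42 became -0.10 without L142. Without that library the F11 group averaged 79.8 ± 10.2 CPM (SD, n = 7) and the GFP group 85.4 ± 13.2 CPM (SD, n = 8). The nearer edge of Cyb561 lies 22929 bases from the RefSeq start of Ace. Cyb561 was at 193.4 CPM in L142 and at no more than 29.7 CPM in the adipose libraries other than L142 and L143.

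Agtr1a had the lowest p of the members in adipose tissue. It was at 9.41 to 20.5 CPM (median 12.1) with GFP and 11.7 to 23.3 CPM (median 15.8) with F11, and 7 of 8 F11 libraries exceeded the GFP median. The log2 fold change was 0.32 (SE 0.18, 95% interval -0.06 to 0.71, adjusted p = 0.9996). Edn1 was at 2.60 to 5.71 CPM (median 4.32) with GFP and 2.12 to 8.89 CPM (median 4.93) with F11. F11 libraries thus held both the lowest and the highest Edn1 values, and the log2 fold change was 0.34 (95% interval -0.25 to 0.93). Agt, with its wide spread, had a log2 fold change of 0.06 (95% interval -0.94 to 1.06), which was 0.39 without L140. For Ednra the value was 0.11 (-0.17 to 0.38), and 0.24 without L140. Ece1 and Ednrb gave 0.04 (-0.12 to 0.20) and 0.02 (-0.17 to 0.22). The exact permutation test for Agtr2 over all 12870 splits gave p = 0.323 and, with counts in 4 of the 16 libraries, could not go below 0.0769.

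Whether the vector difference itself differed between the tissues was tested as an interaction. No member passed, where 0.0242% of 16526 genes passed with edgeR. None had an unadjusted p under 0.05, whereas 7.43% of all genes did, and DESeq2 and limma voom called none. The lowest p belonged to Agtr1a, with a heart-minus-adipose difference in log2 fold change of -0.37 (SE 0.21, 95% interval -0.80 to 0.05, adjusted p = 0.738).

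The other genes of the pathways were followed in 5 lists. In heart, none of the 20 tested renin-angiotensin genes passed for the vector. The count was also 0 of 11 for the endothelin list, 0 of 5 for the kinin list, 0 of 32 for Gq signalling and 0 of 25 for known response genes of the 2 peptides. Their median log2 fold changes were 0.00, -0.03, -0.02, -0.02 and -0.02. The closest to the threshold was Nr3c2, the mineralocorticoid receptor through which aldosterone acts. Nr3c2 was at 26.2 to 31.2 CPM (median 30.1) in GFP hearts and 30.1 to 40.03 CPM (median 34.9) in F11 hearts, with a small overlap. The log2 difference was 0.26 with an SE of 0.06 (adjusted p = 0.0593). Mme, neprilysin, which degrades both peptides and is in both lists, had -0.22 (adjusted p = 0.233). In the Gq list the lowest p-values were those of Gna13, a G protein subunit, at -0.18 (adjusted p = 0.186) and Grk5, a receptor kinase, at -0.32 (adjusted p = 0.253).

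Among response genes of the heart, Col3a1, a fibrillar collagen, had -0.23 (adjusted p = 0.363). The kinin peptidases Xpnpep1 and Xpnpep2 had 0.04 and -0.19 (adjusted p = 0.728 and 0.832).

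In adipose tissue the counts called were 0 of 21, 0 of 10, 0 of 11, 0 of 32 and 0 of 24 in the same order of lists, with median log2 fold changes of -0.07, 0.01, 0.01, 0.02 and -0.05. Nr3c2 again had the lowest p of the renin-angiotensin list, at 5.72 to 12.04 CPM with GFP and 6.90 to 11.3 CPM with F11 (log2 0.28, adjusted p = 0.9996). Cma1, the mast cell chymase, had -0.39 in the endothelin list. Cpm, a carboxypeptidase that trims kinins, had 0.54, and Xpnpep2 had 0.15. Rgs4, which shortens Gq signals, had 0.29 and Plcb1, a phospholipase, -0.18. Nppa, the atrial natriuretic peptide, had -4.66, and its highest value of 102.0 CPM was that of L140, the library with 6759 CPM of cardiomyocyte markers, against a median of 0.692 CPM in the GFP group. The log2 fold changes of the 9 tested cardiomyocyte markers had a median of -4.66 as well, and their part in the Nppa value was not tested. Rcan1, a calcineurin regulator, had -0.14. The lowest adjusted p of these genes was 0.939, that of Nppa.

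Between the tissues the lists divided. With GFP 7 of 22 tested renin-angiotensin genes were higher in heart and 14 lower, and with F11 8 and 14 of 23. The endothelin list had 4 higher and 6 lower of 12 under either vector. Kinin genes were mostly lower in heart, 7 of 11 with GFP and 6 of 9 with F11, beside 1 higher. Hepatocyte markers were lower in heart as well, 11 of 13 with GFP and 13 of 13 with F11. The part of hepatocyte transcripts in the kinin counts was not tested. Gq signalling had 11 higher and 15 lower of 32, and response genes 7 and 16 of 25, under either vector. Over all genes 37.7% were higher in heart and 43.6% lower with GFP, and 38.9% and 42.8% with F11.

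Some genes of these lists, named after their values were seen, complete the picture of which steps were transcribed. Ren1, renin, averaged 0.115 CPM in GFP hearts and 0.131 CPM in GFP adipose tissue, so the enzyme that starts the angiotensin cascade was near the limit of detection in both tissues. Mas1, the receptor for angiotensin 1-7, averaged 1.72 ± 0.309 CPM (SD, n = 6) in GFP hearts and 0.231 ± 0.181 CPM (SD, n = 8) in GFP adipose tissue (log2 2.89, adjusted p = 1.50e-05). Enpep, the aminopeptidase that turns angiotensin II into angiotensin III, had the reverse gradient, at 16.6 ± 1.82 CPM (SD, n = 6) and 82.3 ± 10.4 CPM (SD, n = 8) (log2 -2.32, adjusted p = 2.01e-11). Agtrap, a protein that promotes internalization of the type 1 receptor, was higher in heart, as Agtr1a was (log2 0.83, adjusted p = 2.81e-08). Of the other endothelins, Edn2 had 0 to 6 counts per group. Edn3 was found in every heart library, at 2.12 to 7.50 CPM with GFP, and in 2 of the 8 GFP adipose libraries (log2 5.07, adjusted p = 7.79e-05). L142 had 2.996 CPM of Edn3.

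Libraries of 1 tissue were next compared with each other, after the mean of each vector group had been removed, to see which members varied together. In heart (13 libraries) none of 21 pairs passed a permutation test with 100000 resamples. The closest was Ednrb with Ece1 (Pearson's r 0.70, permutation p = 0.00762, adjusted p = 0.145; Spearman's rho 0.71, permutation p = 0.00806, adjusted p = 0.169; r without the 2 farthest libraries 0.77). In adipose tissue (16 libraries) 8 of 21 pairs passed with Pearson's r and 3 with Spearman's rho. The share among pairs of other genes was not computed in either tissue, so these counts do not set the members apart. Agt and Agtr1a varied together (r 0.76, permutation p = 0.00076, adjusted p = 0.00798; rho 0.81, permutation p = 0.00019, adjusted p = 0.001995). That r was 0.85 without the 2 farthest libraries. Agtr1a and Ednrb also varied together (r 0.78, permutation p = 0.00048, adjusted p = 0.00798; rho 0.82, permutation p = 0.00018, adjusted p = 0.001995), with r 0.81 without the 2 farthest. Ace went the other way from Agtr1a (r -0.55, permutation p = 0.0163, adjusted p = 0.0472; rho -0.74, permutation p = 0.0015, adjusted p = 0.0105), and r was -0.70 without L138 and L142.

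**Figure D4:**
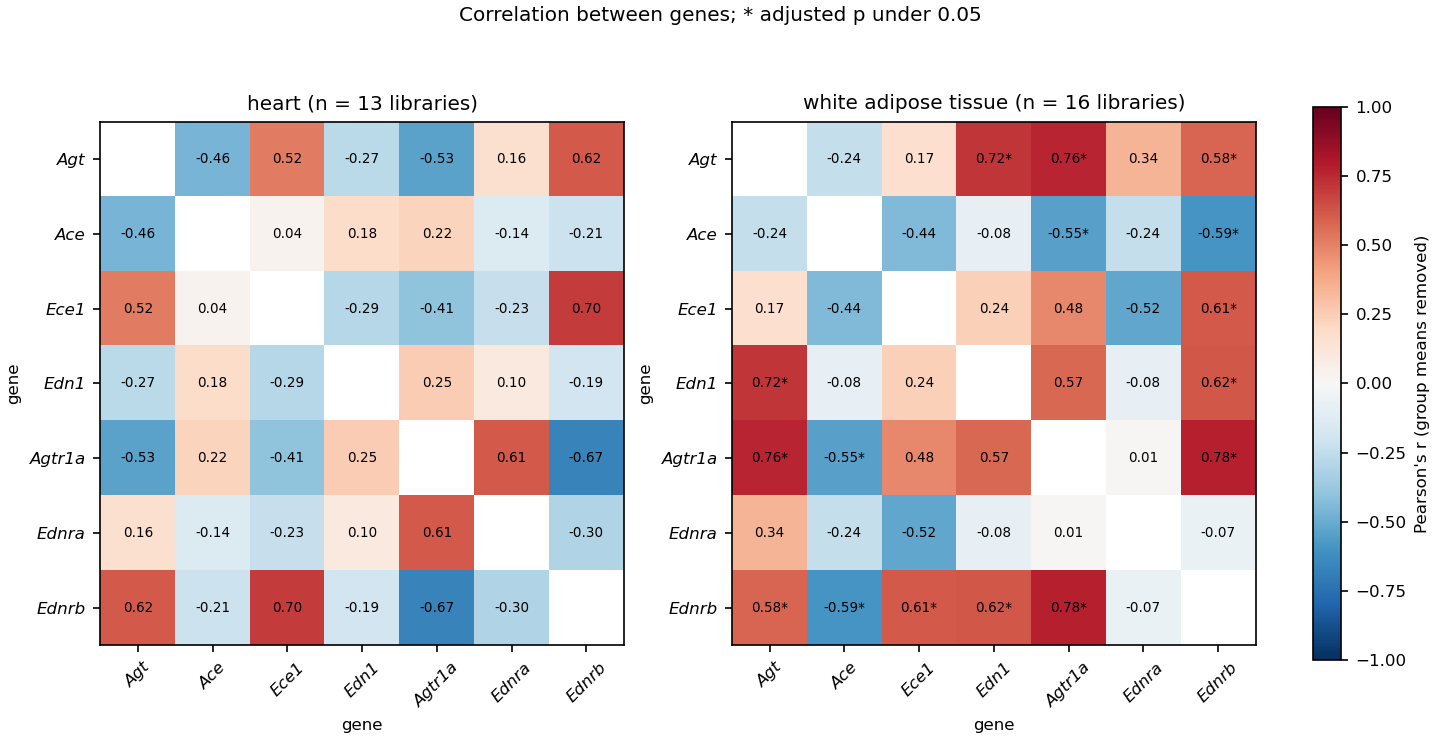
Pearson's r between the log2 levels of 7 genes over the 13 heart and 16 adipose libraries, with group means removed and a star where the adjusted permutation p is under 0.05. Adipose tissue has 8 starred pairs, 6 positive and both negative ones with Ace, and heart has none.

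The other 5 pairs passed with Pearson's r alone. Agt went with Edn1 (r 0.72, permutation p = 0.00193, adjusted p = 0.0135; rho 0.64, permutation p = 0.0104, adjusted p = 0.0543) and with Ednrb (r 0.58, permutation p = 0.018, adjusted p = 0.0472; rho 0.51, permutation p = 0.0439, adjusted p = 0.0849). Ednrb, the clearing receptor, went with its ligand gene Edn1 (r 0.62, permutation p = 0.00954, adjusted p = 0.0405; rho 0.59, permutation p = 0.0189, adjusted p = 0.0661) and with Ece1 (r 0.61, permutation p = 0.0116, adjusted p = 0.0405; rho 0.57, permutation p = 0.0246, adjusted p = 0.0737). Ace went against Ednrb (r -0.59, permutation p = 0.01, adjusted p = 0.0405; rho -0.59, permutation p = 0.0184, adjusted p = 0.0661). Without the 2 farthest libraries these 5 values of r were 0.77, 0.76, 0.44, 0.69 and -0.52. In the 13 adipose libraries without L140, L142 and L143, chosen after the data were seen, r was 0.91 for Agt with Agtr1a, 0.75 for Agtr1a with Ednrb and -0.80 for Ace with Agtr1a. Ednra took part in no pair that passed.

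The adipose libraries also differed in their content of cell type markers, and relations with 6 marker lists were computed after the data were seen, 42 in each tissue. In adipose tissue 14 of 42 passed an adjusted p of 0.05 with Pearson's r. The share that other genes would reach with these lists was not computed. Agt went with the white adipocyte list (r 0.95, permutation p = 1e-05, the smallest that the resamples allow; adjusted p = 0.00021; rho 0.93, permutation p = 1e-05; r without the 2 farthest libraries 0.94). It went against the macrophage list (r -0.87, permutation p = 2e-05, adjusted p = 0.000252; rho -0.88, permutation p = 3e-05; r without the 2 farthest -0.85) and the fibroblast list (r -0.89, permutation p = 1e-05, adjusted p = 0.00021; rho -0.86, permutation p = 0.00012; r without the 2 farthest -0.95). The summed adipocyte markers were at 15951 CPM in L133 and 12603 CPM in L148, which had the lowest Agt levels of 18.1 and 16.2 CPM. They were at 33143 CPM in L140 and 31406 CPM in L144, which had the highest, 170.6 and 125.5 CPM. The macrophage markers were at 5649 and 6556 CPM in the former pair and 835 and 1820 CPM in the latter.

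**Figure D5:**
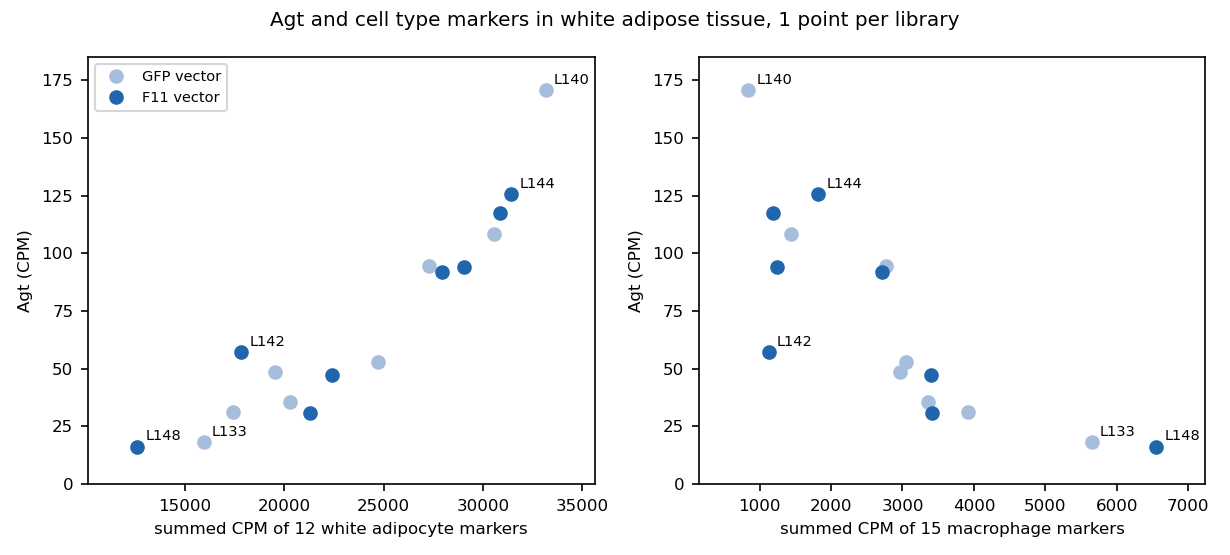
Agt level (CPM) in the 16 adipose libraries against the summed CPM of 12 white adipocyte markers and of 15 macrophage markers, with colours for the vector. Agt runs from 16.2 CPM in L148 to 170.6 CPM in L140, upwards with the adipocyte sum and downwards with the macrophage sum, in libraries of both vectors.

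Receptors for both peptides went with endothelial markers in adipose tissue, and so did Agt (r 0.76, permutation p = 0.00079, adjusted p = 0.00415, rho 0.72, r without the 2 farthest libraries 0.88). The r with the endothelial list was 0.86 for Agtr1a (permutation p = 3e-05, adjusted p = 0.000252; rho 0.90, permutation p = 1e-05; r without the 2 farthest libraries 0.84). For Ednrb, whose product is known in endothelium, it was 0.84 (permutation p = 3e-05, adjusted p = 0.000252; rho 0.83, permutation p = 0.00024; r without the 2 farthest 0.79). Edn1, the endothelial peptide, had 0.71 (permutation p = 0.00209, adjusted p = 0.00975; rho 0.61, permutation p = 0.0145; r without the 2 farthest 0.60). Ece1 had 0.65 (permutation p = 0.00668, adjusted p = 0.0224; rho 0.67, permutation p = 0.00548; r without the 2 farthest 0.62). Agtr1a went with the adipocyte list as well (r 0.80, permutation p = 0.00013, adjusted p = 0.00091, rho 0.84, permutation p = 0.00014, r without the 2 farthest 0.79). So did Edn1 (r 0.69, permutation p = 0.00335, adjusted p = 0.0141, rho 0.53, r without the 2 farthest 0.67) and Ednrb (r 0.68, permutation p = 0.00406, adjusted p = 0.0155, rho 0.57, r without the 2 farthest 0.50). With Spearman's rho neither Edn1 nor Ednrb passed for the adipocyte list (permutation test, adjusted p = 0.0834 and 0.0613). The endothelial and adipocyte lists were not separated in this test. Agtr1a also went with the hepatocyte list (r 0.78, permutation p = 0.00051, adjusted p = 0.00306, rho 0.68, r without the 2 farthest 0.58). L136 and L145, with the highest Agtr1a of their vector groups, held 5934 and 5535 CPM of hepatocyte markers. Agt did not pass with the hepatocyte list (r 0.495, permutation p = 0.0516, adjusted p = 0.120, rho 0.51, r without the 2 farthest 0.69). Against the fibroblast list went Agtr1a (r -0.65, permutation p = 0.00692, adjusted p = 0.0224) and Edn1 (r -0.62, permutation p = 0.01115, adjusted p = 0.03345). By rho Agtr1a passed (-0.68, adjusted permutation p = 0.0209) and Edn1 did not (-0.56, adjusted permutation p = 0.0655). Ace passed by rho alone, against the endothelial list (rho -0.71, permutation p = 0.0029, adjusted p = 0.0152, r -0.45) and the adipocyte list (rho -0.67, permutation p = 0.00631, adjusted p = 0.0221, r -0.42). Ednra passed with none of the lists. In heart 1 of 42 passed, Agtr1a with a hepatocyte list of which 2 genes were tested (r -0.79, permutation p = 0.00035, adjusted p = 0.0147; rho -0.84, permutation p = 0.00073; r without the 2 farthest -0.84).

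Finally, the genes most like each member were listed by Pearson's r over the libraries of a tissue, among 10709 genes in adipose tissue and 10172 in heart with a mean of at least 5 CPM, as a description. In adipose tissue Agt was most like Acss3 (r 0.98), Pygb (0.98) and Nfia (0.97). Agtr1a was most like Pbld1 (0.94) and Fmo5 (0.94), Ednrb like Adcy4 (0.91), Nudt18 (0.90) and Ccdc85b (0.89), and Ece1 like Nid1 (0.95), Rap1gap2 (0.94) and Arhgap23 (0.93). The values for these 4 members moved by less than 0.05 without L140, L142 and L143. Edn1 was most like Nprl3 (0.88), Chrnb1 (0.85) and Lyz1 (0.85). For Ace and Ednra the likeness rested in part on single libraries. Ace was most like its neighbour Cyb561 (0.98, and 0.88 without the 3 libraries), Ap1s2 (0.98 and 0.86) and Slc7a5 (0.97 and 0.87). Ednra was most like F3, tissue factor (0.93, and 0.74 without them), Arhgap21 (0.90 and 0.78) and Camk2d (0.89 and 0.68).

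In heart Ece1 had the closest match, Cgnl1 (r 0.98), followed by Vasn (0.94) and Adgra2 (0.93). Ace was most like Atg2a (0.94), Megf9 (0.88) and Itpripl2 (0.88), and Edn1 like Mrpl17 (0.92), Asb10 (0.92) and Pgk1 (0.92). Ednra was most like Adam22 (0.91), Bclaf1 (0.91) and Tecrl (0.90), and Agtr1a like Gpd1l (0.90), Zfp46 (0.88) and Snap23 (0.87). Agt was most like Slc39a13 (0.89), and Ednrb like Tbkbp1 (0.87), Psen2 (0.86) and Fgfr1 (0.82). None of these genes was named for the same member in both tissues.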

How the data were processed

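Per the labels' protocols, total RNA was made into mRNA libraries and sequenced on a NovaSeq. The authors deposited estimated counts per gene, not scaled to library size, made with kallisto 0.46 on GRCm38.p6 per the submitters' processing notes. Neither annotation release nor strand setting is stated, and reads of overlapping or antisense genes may therefore be mixed. The labels also name a heart library L10 (GFP), which was not used here because it has no column in the count table. Symbols, coordinates and exon lengths came from GENCODE M21 (GRCm38). Estimated counts were rounded and fitted with edgeR 4.0.16 in R 4.3.3 (filterByExpr, TMM, robust quasi-likelihood test, two-sided, Benjamini-Hochberg adjusted p under 0.05 over all genes tested). DESeq2 1.42.0 and limma 3.58.1 (voom with quality weights), other filters and size factors and leaving out libraries were alternatives. CPM used TMM factors over all 29 libraries, and correlations used log2(CPM + 0.5). Named are all members, the list genes called for the vector or else the 2 of lowest p per list, and the 3 genes most like each member. Of the genes this rule takes, 4 are not reported here. Members and lists were chosen with earlier results of these data known. In a test on simulated counts, 50 genes per size of change, 56, 76, 90 and 96% of 1.25, 1.5, 2 and 4-fold changes were found in the heart vector comparison over 14561 genes and 2, 46, 74 and 86% in the adipose one over 15113 genes. The simulations gave 169 and 105 calls, 10 and 1 of them false, while the real comparisons gave 128 and 0. An adjusted p depends on how many genes change, so a single changed gene in adipose tissue may be found less often.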

Additional observations from a re-analysis of the deposited data

Results flagged for a closer look

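Single libraries far from the rest of their group were found in 5 of 32 combinations of gene and group by Dixon's test. Chance flags about 1 in 20 where values are normally distributed, a rate that does not apply to Agtr2 with its many values of 0. In 2 of the 5, both for Agtr2, only 1 library of the group had any count, which meets the criterion by construction. Without these groups the count was 3 of 30, which still includes Agtr2 in the F11 adipose group, with 5 of 8 libraries at 0. Ace was at 333.8 CPM in adipose library L142 (F11 vector), against 60.6 to 90.0 CPM in the other 7 of its group. Agtr2 was at 0.487 CPM in the same library, at 0.100 CPM in adipose library L135 (GFP vector) and at 0.0452 CPM in heart library L35 (F11 vector), the last 2 being those cases and neither above the level that a count of 0 allows (0.100 and 0.136 CPM). Ednra was at 21.7 CPM in adipose library L140 (GFP vector), against 10.6 to 13.5 CPM in the other 7. L142 also held the epididymal genes Spag11b at 668 CPM and Lcn8 at 778 CPM, and L140 the cardiomyocyte markers at 6759 CPM. Their part in the Ace, Agtr2 and Ednra values was not tested.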

How the results depend on the processing

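No paired analysis was possible because the groups share no library numbers. These numbers do not tell whether heart and adipose libraries stem from the same mice. The tissue and interaction tests treat the libraries as independent. For the members, leaving out each library in turn lost no tissue call except that of Edn1 with GFP, where the log2 difference lay between -0.44 and -0.29. Members in the vector comparisons and in the interaction passed under none of the alternatives run. Genes called for the vector in heart numbered 128, and 377 with DESeq2, 201 with limma voom, 30 in a fit over all 4 groups and 87 to 179 without 1 library. In adipose tissue the count of 0 became 6 with DESeq2 and 4 in the fit over all groups, and was 0 on leaving out any library. The interaction count of 4 was 2 without a filter, 172 with DESeq2, 24 with limma voom and 1 to 6 without 1 library. Tissue counts without 1 library were 12396 to 12836 (GFP) and 12496 to 12790 (F11). Adipose pairs numbered 8 with Pearson's r and 3 with Spearman's rho. Some values that passed no test changed sign, among them those of Ace, which were 0.42 for the vector in adipose tissue, -0.39 for heart over adipose (F11) and -0.29 for the interaction. For Ace, F11 over GFP in adipose tissue was -0.0907 with DESeq2 and -0.12 without the libraries rich in foreign transcripts. Ace in heart over adipose (F11) was 0.10 with DESeq2, 0.0339 with limma voom and 0.10 without those libraries. Ace in the interaction was 0.15 with limma voom and 0.28 without them, Ednrb -0.0181 with limma voom and Ednra -0.12 without them. The cause was not tested beyond the libraries left out. Over single libraries left out, log2 values that crossed 0 ran from -0.10 to 0.51 (Ace), -0.10 to 0.39 (Agt) and -0.0244 to 0.0726 (Ednrb) for the vector in adipose tissue. In heart they ran from -0.19 to 0.00738 (Agt) and -0.10 to 0.00262 (Ece1). Ace in heart over adipose (F11) ran from -0.51 to 0.11. In the interaction they ran from -0.38 to 0.21 (Ace), -0.49 to 0.0103 (Agt), -0.0452 to 0.15 (Ednra) and -0.00406 to 0.12 (Ednrb). Depth limits Agtr2, Agtr1b, Ren1 and Edn2, which had few or no counts.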
